A study of Mus musculus with 5 samples.

Results

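Collagen chain genes encode the proteins that wind around each other into the rods, sheets and beaded filaments of the extracellular matrix. Members were set by name, as every gene whose symbol reads Col, a number, a and a number. This rule was met by 44 of the 55486 reference genes in the files. The family was chosen with earlier results of these data known, so its counts beside those of all genes are descriptions. The cells were GL261, a mouse glioma line that is grown in culture and used as a model of glioblastoma. One group of libraries came from GL261 cells given sodium propionate, the salt of propionic acid, which bacteria of the colon release from fibre (2 libraries, replicates 2 and 3), and the other from GL261 cells given sodium chloride (3 libraries, replicates 1 to 3), each labelled 1 uM and taken at 24 hours. The question, per the study's design text, was which transcripts change after propionate. All 5 libraries were made from total RNA of the same cell line with no genetic change named in the labels, and nothing in the labels says that replicates came from separate cultures, so p-values measure only the spread between these libraries.

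Fibrillar collagens, such as types I, II, III, V and XI, assemble into the banded fibres of skin, bone, cartilage and vessel walls. Type IV chains form the mesh of basement membranes, collagen VI forms beaded filaments near the cell surface, and fibril-associated collagens, such as types IX and XII, decorate the fibres. Brain tissue holds little fibrillar collagen outside its vessels and meninges, and gliomas are known to deposit collagen in their own matrix.

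Values are in TPM, the relative abundance unit that sums to the same total in every library, which the authors' StringTie run gave each transcript and which was summed per gene. Coverage times length, summed over all listed transcripts, was 6.59 and 6.75 Gb in the propionate libraries and 6.53 to 7.03 Gb in the chloride libraries. Reads outside these transcripts are not in that sum. In these libraries 1 TPM stood for a coverage of 4.73 to 4.99 reads per base. Vim, which encodes an intermediate filament of glioma cells, had 6100 and 6840 TPM in propionate libraries, against 5470 to 7070 TPM in chloride libraries. Of the defining endothelial genes, Cdh5 and Kdr were listed at 0 throughout and the list of 5 summed to at most 0.157 TPM. Because RNA was taken from whole cultures, fewer cells making a transcript and less of it per cell cannot be told apart.

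The collagen chains that GL261 cells expressed most are best known from cartilage. Of the 44 genes, 5 averaged at least 100 TPM, 12 lay between 10 and 100 TPM, 3 lay between 1 and 10 TPM, 22 lay below 1 TPM and 2 were listed at 0 in all 5 libraries. Col9a2 and Col2a1 alone held 66.1% and 66.8% of all collagen TPM in the propionate libraries and 69.4%, 70.1% and 69.7% in the chloride libraries. By mean TPM over all libraries they ranked 59 and 125 among all genes. All chains together came to 2270 and 2880 TPM in propionate libraries, against 2960, 2960 and 2700 TPM in chloride libraries, so the groups overlapped. The spread between the propionate libraries was general: each of the 20 tested collagen genes was higher in propionate replicate 3 than in replicate 2, with a median log2 difference of 0.253, against 75% of all 13876 tested genes and a median of 0.129.

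**Figure D1:**
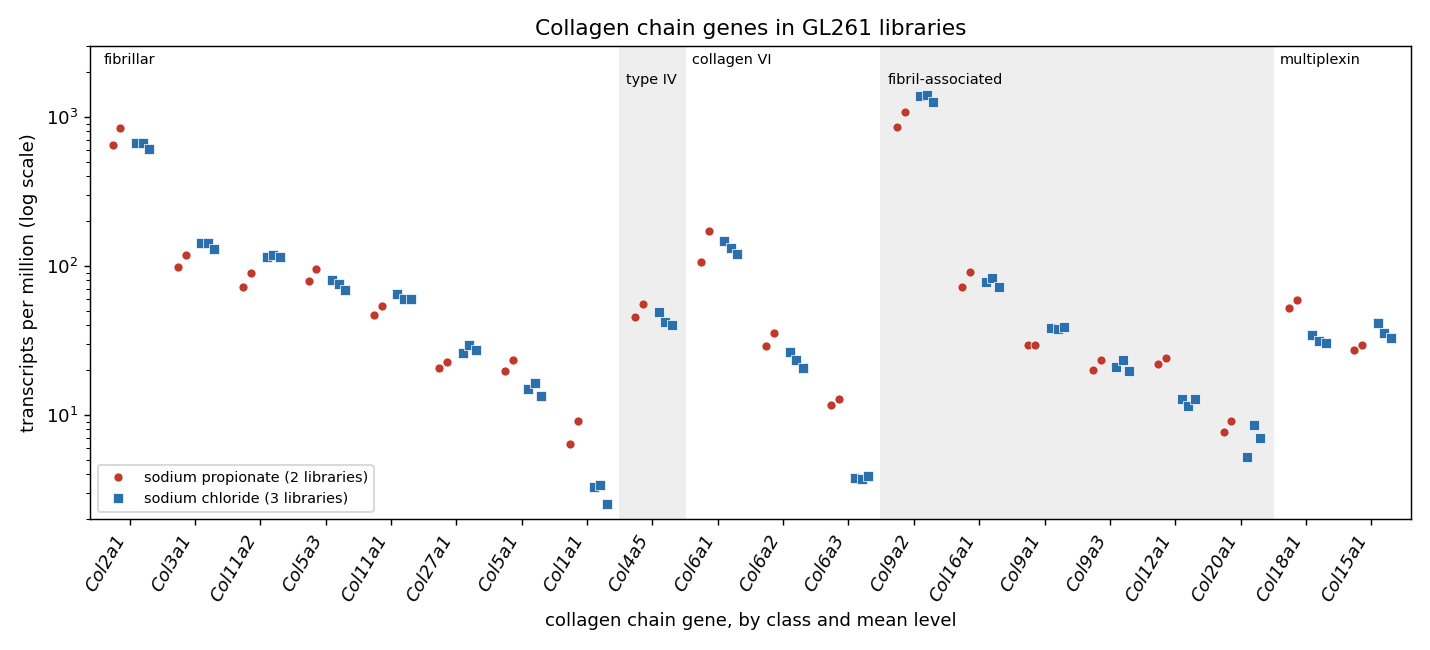
Level of the 20 collagen chain genes with a mean of at least 1 TPM in every library, in TPM on a log axis, with genes grouped by class along the x axis. Red circles are the 2 propionate libraries and blue squares the 3 chloride libraries. Without overlap, Col6a3, Col1a1, Col12a1, Col18a1, Col5a1 and Col6a2 stand higher in propionate, as do 14.8% of all tested genes. Col9a2, Col11a2, Col9a1, Col3a1, Col11a1, Col15a1 and Col27a1 stand lower without overlap, as do 19.7% of all tested genes.

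The comparison of propionate with chloride used limma on log2(TPM + 1) over all 13876 genes with a mean of at least 1 TPM, with Benjamini-Hochberg adjustment over all of them and a threshold of 0.05. Col6a3, Col1a1, Col12a1 and Col18a1 rose in propionate, and no collagen gene fell. That is 4 of 20 tested genes higher and 0 lower, where 1.31% of all tested genes were called higher and 0.504% lower. Of the 20 genes, 13 had a log2 change above 0, as did 44.5% of all tested genes. Col20a1 is among the 13, though 99.1% of its TPM came from assembled transcripts that begin in the upstream gene Arfgap1. At an unadjusted p under 0.05, 6 were higher and 7 lower, where 7.93% and 8.91% of all tested genes were. The median log2 change was 0.125, against -0.026 over all tested genes, and the median absolute log2 change was 0.352, against 0.14. In 6 collagen genes the propionate libraries lay wholly above the chloride libraries and in 7 wholly below, where 14.8% and 19.7% of all tested genes did so.

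Those counts moved with the processing and with 1 library. Rescaling TPM over protein-coding genes gave 6 collagen genes higher and 7 lower (5.21% and 3.61% of all genes tested there). Fitting voom to transcript coverage times length, summed per gene, gave 6 and 6 (5.1% and 2.59%). Both kept the same 4 genes and added Col5a1 and Col6a2 above 0 and Col9a1, Col9a2, Col11a1, Col11a2, Col3a1 and Col15a1 below 0, and the rescaling also added Col27a1 below 0. No collagen gene was called with reference transcripts only (0.0375% of all genes higher and 0.045% lower) or with no minimum on TPM (0.00656% and 0.00328%). With reference transcripts only, the log2 changes of Col12a1 and Col1a1 stayed at 0.854 and 1.098 (limma adjusted p = 0.0943 and 0.174). Those of Col6a3 and Col18a1 fell to 0.717 and 0.286. With no minimum, the fit was made anew over 30485 genes. The log2 changes of all 4 genes stayed the same, and their limma adjusted p rose to between 0.0952 and 0.199. Without propionate replicate 3 no collagen gene was called, and over all genes 8 were called higher and 7 lower (0.0577% and 0.0504%). The median log2 change of the tested collagen genes was then -0.036, and it was 0.343 without propionate replicate 2.

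**Figure D2:**
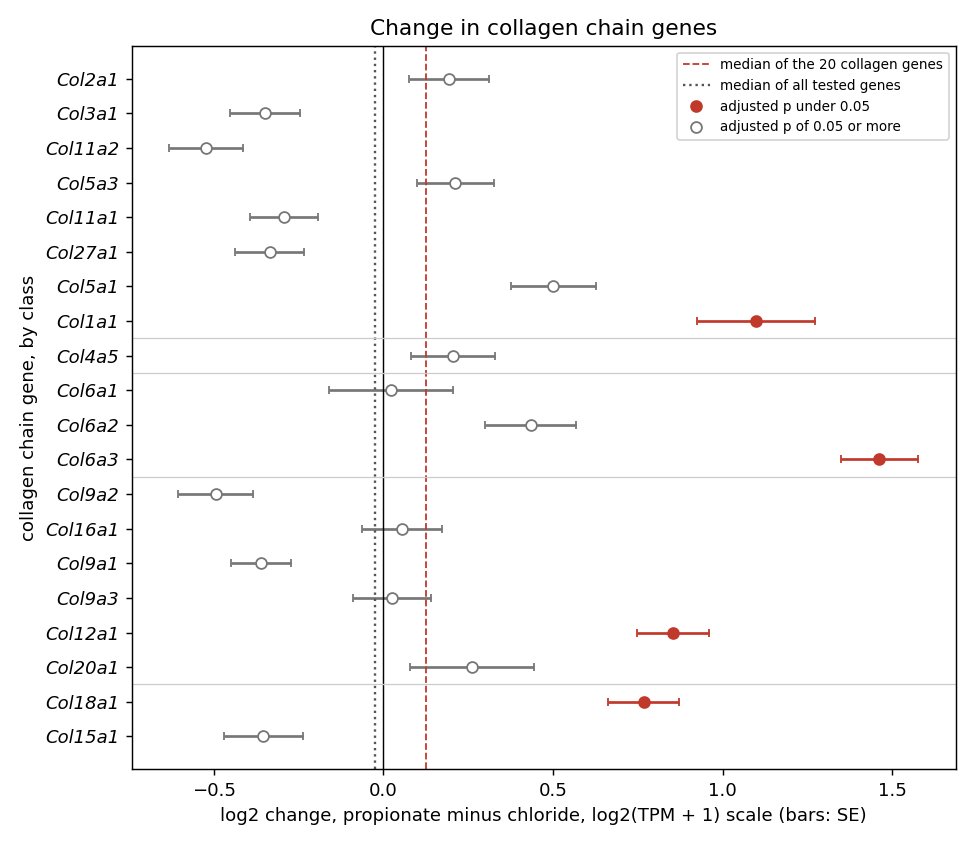
Fitted log2 change (propionate minus chloride, on log2 of TPM + 1) for the 20 tested collagen genes, by class from fibrillar at the top to multiplexin at the bottom, with the standard error as bars. Filled red points are the 4 genes with an adjusted p under 0.05. The dashed line is the median of these genes, 0.125, and the dotted line the median of all tested genes, -0.026.

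Fibrillar chains did not move together. Of 11 genes, 8 were tested, 1 rose and 0 fell, where 1.31% of all tested genes were called higher and 0.504% lower. Of the 8, 4 were above 0, as were 44.5% of all tested genes. The median log2 change of the 8 was -0.05, against -0.026 over all tested genes. The gene that rose was Col1a1 (GRCm38 chromosome 11, 94936224 to 94953042, plus strand), which encodes the main chain of collagen I in bone, skin and scar. Col1a1 had 6.4 and 9.14 TPM in propionate libraries, against 3.28, 3.39 and 2.53 TPM in chloride libraries. The lowest propionate value was above the highest chloride value, and the log2 change was 1.098 ± 0.175 (SE, limma adjusted p = 0.0239). Col1a2, whose product joins that of Col1a1 in ordinary collagen I, was at 0 and 0.019 TPM in propionate libraries and at 0, 0.0145 and 0.0128 TPM in chloride libraries. The call of Col1a1 was lost without propionate replicate 3 (adjusted p = 0.162) and without chloride replicate 1 (adjusted p = 0.0693).

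Col2a1, the chain of cartilage collagen II, was the most abundant fibrillar gene. It had 648 and 844 TPM in propionate libraries, against 671, 664 and 607 TPM in chloride libraries, with overlapping groups and a log2 change of 0.194 ± 0.118 (limma adjusted p = 0.449). Its partners in cartilage fibrils lay on the other side of 0. Col11a2, a chain of collagen XI, had 71.7 and 89.5 TPM in propionate libraries, against 114, 119 and 114 TPM in chloride libraries. The groups did not overlap, and the log2 change of -0.522 ± 0.109 missed the threshold (limma adjusted p = 0.0565). It passed with a minimum of 5 TPM, with FPKM, with both rescalings and with voom (adjusted p = 0.00724 to 0.0459).

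Col11a1, the other gene of collagen XI, had 46.6 and 53.7 TPM in propionate libraries, against 64.6, 60.1 and 60 TPM in chloride libraries (log2 change -0.293 ± 0.099, limma adjusted p = 0.185). Col27a1, a fibrillar chain of growth cartilage, had 20.6 and 22.5 TPM in propionate libraries, against 25.9, 29.4 and 27.1 TPM in chloride libraries (-0.335 ± 0.102, limma adjusted p = 0.151). Col3a1, the chain of collagen III of vessels and soft tissue, had 98.8 and 118 TPM in propionate libraries, against 142, 143 and 130 TPM in chloride libraries (-0.349 ± 0.104, limma adjusted p = 0.141). In these 3 genes all propionate values were below all chloride values, but none passed in this fit. Assembled transcripts held 73.1% of the TPM of Col11a1, 69.8% of Col27a1 and 3.3% of Col3a1. From reference transcripts only, the log2 changes were 0.26, -0.099 and -0.276 in that order, and the groups of Col11a1 and Col27a1 overlapped.

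Collagen V regulates how thick collagen I fibres grow. Col5a1 had 19.6 and 23.4 TPM in propionate libraries, against 14.8, 16.4 and 13.4 TPM in chloride libraries, without overlap (log2 change 0.501 ± 0.125, limma adjusted p = 0.0925). Assembled transcripts held 54.3% of this, and from reference transcripts only the groups overlapped (0.419, limma adjusted p = 0.549). Col5a3 had 79.1 and 94.9 TPM in propionate libraries, against 80.1, 75.9 and 68.4 TPM in chloride libraries, with overlap (0.212 ± 0.113, limma adjusted p = 0.386). Col5a2, the usual partner of Col5a1, was at most 0.102 TPM in any library.

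Exon 2 of Col2a1 was examined after the transcript values had been seen, because the gene has a form with this exon, made by cartilage precursors, and a form without it, made by mature chondrocytes. The exon encodes a cysteine-rich domain of the propeptide. It is 204 bases long, lies at chr15:98000403-98000606 on the minus strand of GRCm38, and is given below as GENCODE M21 has it, with exon 2 in capitals and 15 bases of each neighbouring exon in lower case.
Col2a1 exon 2: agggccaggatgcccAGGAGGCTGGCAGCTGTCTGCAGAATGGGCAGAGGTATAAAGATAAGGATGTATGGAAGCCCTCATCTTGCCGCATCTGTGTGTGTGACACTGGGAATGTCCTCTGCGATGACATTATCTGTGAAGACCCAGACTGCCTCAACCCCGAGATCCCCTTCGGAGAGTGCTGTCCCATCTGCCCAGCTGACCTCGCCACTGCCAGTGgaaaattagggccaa

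The transcript with exon 2 was given 465 and 591 TPM in propionate libraries, against 416, 386 and 366 TPM in chloride libraries. The transcript without it was given 172 and 241 TPM in propionate libraries, against 246, 265 and 231 TPM in chloride libraries. The form with exon 2 thus took 73.0% and 71.0% of the pair in propionate libraries and 62.9%, 59.3% and 61.3% in chloride libraries, with no overlap.

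Coverage of the exon itself gave a much lower level and the same order of the groups. Summed over all transcripts, exon 2 had 600 and 637 reads per base in propionate libraries, against 457, 441 and 413 in chloride libraries, while exon 3 had 3500 and 4080 in propionate libraries, against 3620, 3530 and 3150 in chloride libraries. Exon 2 coverage was 17.2% and 15.6% of that of exon 3 in propionate libraries and 12.6%, 12.5% and 13.1% in chloride libraries. It was 27.5% and 24.7% of that of exon 1 in propionate libraries and 20.1%, 20.1% and 20% in chloride libraries. Each of these shares was higher in both propionate libraries than in every chloride library, and the exact two-sided permutation p of each was 0.1, the smallest that 2 libraries against 3 allow. The share of molecules with exon 2 therefore depends on the measure: the transcript estimates put it above that of the form without exon 2 in every library, and the coverage of the exon does not.

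**Figure D3:**
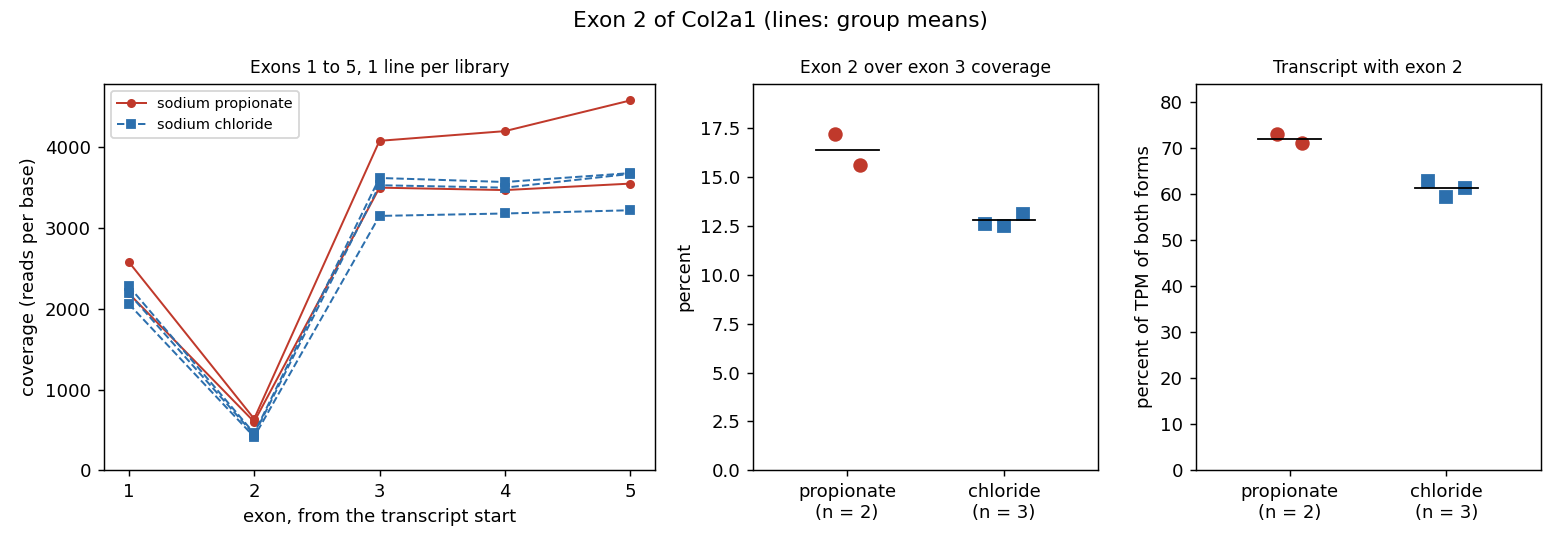
Coverage of exons 1 to 5 of Col2a1 in reads per base (left), exon 2 coverage as a percent of exon 3 coverage (middle) and the estimated share of the transcript with exon 2 (right). Red circles are propionate libraries, blue squares chloride libraries and black lines group means. Exon 2 dips in every library, and both shares are higher in the 2 propionate libraries than in the 3 chloride libraries.

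Basement membrane collagen was represented by Col4a5 almost alone. Col4a5, an X-linked chain mutated in Alport syndrome, had 45.7 and 55.5 TPM in propionate libraries, against 48.8, 42.1 and 40.1 TPM in chloride libraries, with overlap (log2 change 0.206 ± 0.124, limma adjusted p = 0.443). Assembled transcripts held 53.4% of this. Reference transcripts of Col4a5 had 32.7 and 25.7 TPM in propionate libraries, against 14.2, 20.9 and 14.7 TPM in chloride libraries, without overlap (0.79, limma adjusted p = 0.266). Its head-to-head neighbour Col4a6, whose start lies 1308 bases away on the opposite strand, was at 0.125 and 0.118 TPM in propionate libraries, against 0.0844, 0.131 and 0.118 TPM in chloride libraries. The chains of the common basement membrane network were also scarce. Col4a1 had 0.849 and 0.907 TPM in propionate libraries, against 0.93, 0.609 and 0.653 TPM in chloride libraries. Col4a2, which shares its start region with Col4a1, had 0.404 and 0.456 TPM in propionate libraries, against 0.207, 0.243 and 0.188 TPM in chloride libraries, below the level at which genes were tested. Col4a3 and Col4a4 reached at most 0.107 and 0.272 TPM in any library.

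Collagen VI held Col6a3, whose log2 change was the largest among the 20 tested collagen genes in this fit, though not with reference transcripts only, where it was 0.717 and that of Col1a1 1.098. Of its 6 genes, 3 were tested, 1 rose and 0 fell, all 3 were above 0 and their median log2 change was 0.434. Over all tested genes, 1.31% were called higher, 0.504% lower and 44.5% were above 0, with a median of -0.026. Col6a3 (chromosome 1, 90765923 to 90843971, minus strand), the long chain that limits how collagen VI assembles, had 11.7 and 12.7 TPM in propionate libraries, against 3.76, 3.71 and 3.91 TPM in chloride libraries. The groups lay far apart relative to their spread, with a log2 change of 1.462 ± 0.114 (limma adjusted p = 0.0016). Without propionate replicate 3 the adjusted p was 0.0591.

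Col6a2 had 29 and 35.3 TPM in propionate libraries, against 26.6, 23.5 and 20.5 TPM in chloride libraries, without overlap (log2 change 0.434 ± 0.135, limma adjusted p = 0.158). Col6a1, the most abundant chain of the type, had 106 and 172 TPM in propionate libraries, against 147, 132 and 121 TPM in chloride libraries. Its propionate values lay on both sides of the chloride values, and its log2 change of 0.022 ± 0.183 (limma adjusted p = 0.969) was -0.082 with voom. Col6a4, Col6a5 and Col6a6, whose products can take the place of the Col6a3 chain, were at most 0.0554 TPM in any library.

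Relative to Col6a1 in the same library, Col6a3 stood at a ratio of 0.11 and 0.0743 in propionate libraries, against 0.0256, 0.0281 and 0.0322 in chloride libraries. These ratios do not depend on how a library is scaled. Col6a3 had already been called higher in the same libraries, so its ratio is not separate support for that call. The groups did not overlap, with an exact two-sided permutation p of 0.1, the smallest possible, and 0.127 adjusted over the 14 ratios of chains that were compared.

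Col6a3 was higher along its whole length. Of the 41 exons of its main reference transcript, 38 had more coverage in both propionate libraries than in every chloride library, and the median ratio of propionate over chloride was 3.22 over the exons nearer the start and 4.31 over those nearer the end. Exons of a gene share fragments and libraries, so they are not separate replicates. Gene TPM comes from the same coverage, so exon counts, here and below, are not separate support for a change of the gene. The main reference transcript itself had 4.84 and 5.43 TPM in propionate libraries, against 1.91, 1.81 and 2.02 TPM in chloride libraries. Transcripts assembled from the reads held 5.32 and 6.46 TPM in propionate libraries, against 0.823, 0 and 0.138 TPM in chloride libraries. With reference transcripts only, the gene had 6.36 and 6.28 TPM in propionate libraries, against 2.94, 3.71 and 3.77 TPM in chloride libraries, and the log2 change was 0.717 (limma adjusted p = 0.201).

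**Figure D4:**
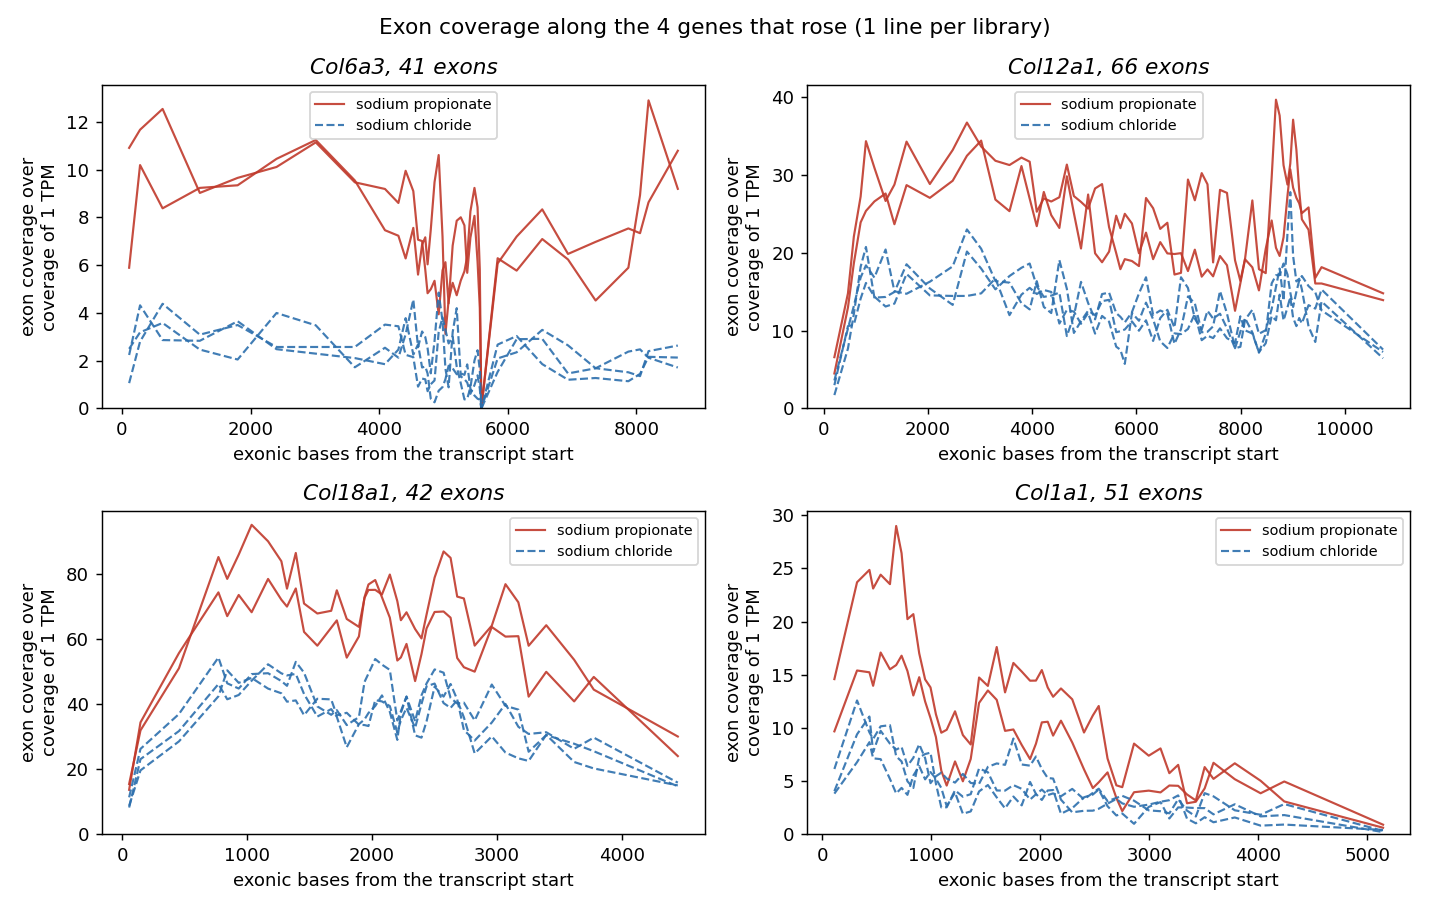
Exon coverage along Col6a3, Col12a1, Col18a1 and Col1a1, with 1 line per library (red, propionate; dashed blue, chloride). The x axis gives exonic bases from the transcript start and the y axis the coverage of each exon, all transcripts summed, divided by the coverage that 1 TPM has in that library. Propionate lines run above chloride lines over 38 of 41, 66 of 66, 42 of 42 and 47 of 51 exons of these genes, in that order. Gene TPM comes from the same coverage, so these counts are not separate support for the calls.

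Fibril-associated collagens held both the most abundant chain and a gene that rose. Of 9 genes, 6 were tested, 1 rose and 0 fell, 4 were above 0 and the median log2 change was 0.04. Over all tested genes, 1.31% were called higher, 0.504% lower and 44.5% were above 0, with a median of -0.026. Col12a1 (chromosome 9, 79598991 to 79718831, minus strand) encodes collagen XII, which binds collagen I fibres in tendon and other loaded tissue. It had 21.8 and 24.2 TPM in propionate libraries, against 12.7, 11.5 and 12.7 TPM in chloride libraries. Both propionate libraries exceeded every chloride library in all 66 exons, and the log2 change was 0.854 ± 0.106 (limma adjusted p = 0.0103; 0.1 without propionate replicate 3).

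Collagen IX sits on collagen II fibres and is built from the products of Col9a1, Col9a2 and Col9a3. Col9a2 had 854 and 1080 TPM in propionate libraries, against 1390, 1410 and 1270 TPM in chloride libraries. All 32 of its exons had less coverage in both propionate libraries than in every chloride library, and the log2 change of -0.495 ± 0.11 missed the threshold (limma adjusted p = 0.0674) but passed it with both rescalings and with voom (adjusted p = 0.00828 to 0.0348). Relative to Col2a1, Col9a2 stood at a ratio of 1.32 and 1.28 in propionate libraries, against 2.07, 2.12 and 2.1 in chloride libraries, so the groups did not overlap (exact permutation p = 0.1, the smallest possible; 0.127 adjusted over 14 ratios).

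Col9a1 had 29.4 and 29.5 TPM in propionate libraries, against 38, 37.4 and 38.6 TPM in chloride libraries, without overlap (log2 change -0.36 ± 0.088, limma adjusted p = 0.0897). Assembled transcripts held 65.6% of this, and from reference transcripts only the groups overlapped (-0.209, limma adjusted p = 0.681). Col9a3 had 20 and 23.2 TPM in propionate libraries, against 20.8, 23.2 and 19.6 TPM in chloride libraries, with overlap (0.026 ± 0.115, limma adjusted p = 0.942). Although the products of these genes join in equal numbers, Col9a2 stood far above its partners in every library.

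Col9a1 has a downstream start that gives a shorter chain, known from the eye. Transcripts from that start had 1.93 and 1.96 TPM in propionate libraries, against 0, 0.186 and 0.22 TPM in chloride libraries. Transcripts from the upstream start had 26.8 and 26.2 TPM in propionate libraries, against 37.4, 36.3 and 37.5 TPM in chloride libraries. The downstream start thus made up 6.72% and 6.96% in propionate libraries and 0%, 0.509% and 0.583% in chloride libraries, without overlap (exact two-sided permutation p = 0.1, the smallest possible). This split was looked at after the transcript values had been seen.

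Col16a1, a widely made fibril-associated chain, had 72.1 and 90.5 TPM in propionate libraries, against 78.3, 82.5 and 72.7 TPM in chloride libraries, with overlap (log2 change 0.055 ± 0.117, limma adjusted p = 0.865). Col20a1 was summed to 7.68 and 9.08 TPM in propionate libraries and 5.22, 8.56 and 7.01 TPM in chloride libraries, but 99.1% of this came from assembled transcripts that begin in the upstream gene Arfgap1. Its own reference transcripts reached at most 0.116 TPM, so expression of Col20a1 as such is uncertain. The ratio of Col12a1 over Col16a1 was 0.302 and 0.267 in propionate libraries, against 0.162, 0.139 and 0.174 in chloride libraries, without overlap.

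Multiplexins, the collagens of basement membrane zones that carry the endostatin domain, gave opposite signs. Col18a1 (chromosome 10, 77052178 to 77166548, minus strand), the parent chain of endostatin, had 51.8 and 58.8 TPM in propionate libraries, against 34.5, 31.4 and 30.2 TPM in chloride libraries. Both propionate libraries exceeded every chloride library in all 42 exons, and the log2 change was 0.767 ± 0.105 (limma adjusted p = 0.0138; 0.102 without propionate replicate 3). Col15a1 had 27.1 and 29.4 TPM in propionate libraries, against 41.3, 35.4 and 32.9 TPM in chloride libraries, also without overlap (-0.354 ± 0.117, limma adjusted p = 0.18). The ratio of Col18a1 over Col15a1 was 1.91 and 2.0 in propionate libraries, against 0.836, 0.889 and 0.918 in chloride libraries.

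Transcripts of Col18a1 from its upstream start had 49.7 and 57.2 TPM in propionate libraries, against 33.2, 30.6 and 28.8 TPM in chloride libraries. Those from its downstream start had at most 0.391 TPM in any library, so the change lay in the form from the upstream start. Assembled transcripts held 46.4% of the gene's TPM on average. With reference transcripts only, Col18a1 had 12.6 and 40.2 TPM in propionate libraries, against 23.6, 22.9 and 11.5 TPM in chloride libraries, with overlap, and the log2 change was 0.286 (limma adjusted p = 0.863). Slc19a1 lies on the opposite strand over 8825 bases of Col18a1 with a mean of 11.8 TPM, and without a strand setting unspliced reads of the overlap cannot be assigned.

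**Figure D5:**
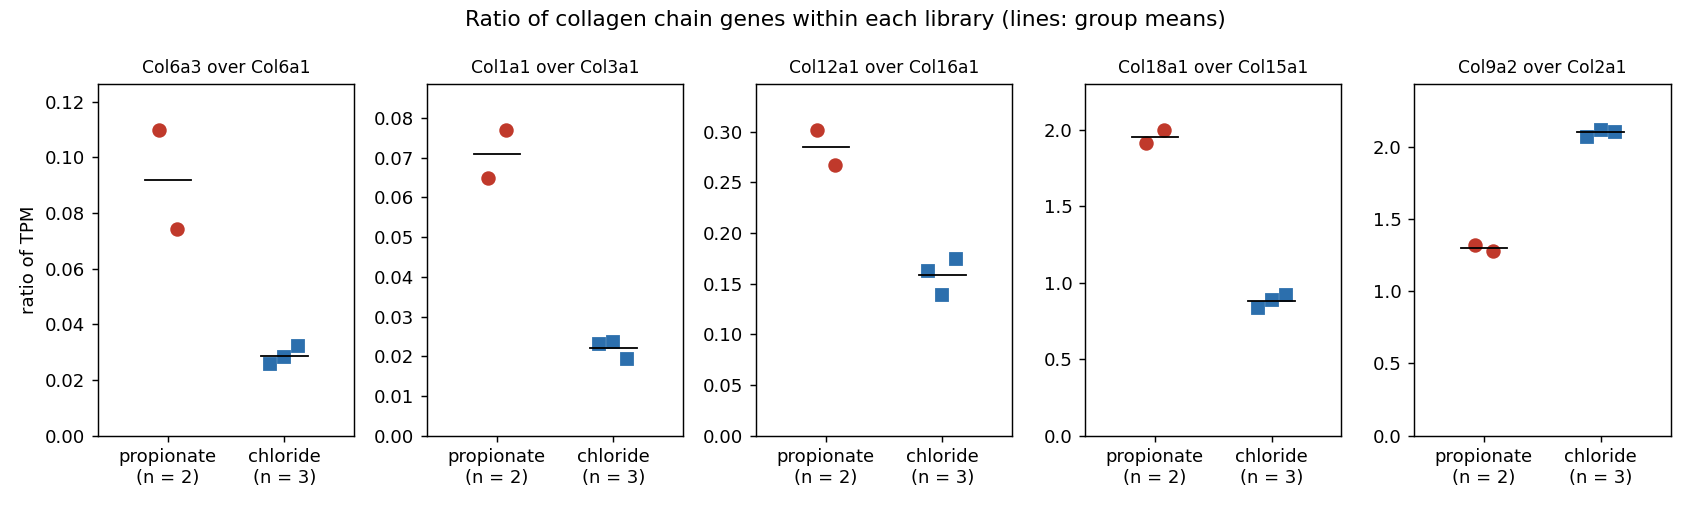
Ratio of TPM of collagen chain genes within each library, a measure that does not depend on the scaling of a library. Red circles are the 2 propionate libraries, blue squares the 3 chloride libraries and black lines group means. The ratios over Col6a1, Col3a1, Col16a1 and Col15a1 are higher in propionate without overlap, and that of Col9a2 over Col2a1 is lower. The higher ratios have Col6a3, Col1a1, Col12a1 and Col18a1 as numerators. These genes were already called higher in the same libraries, so the ratios are not separate support for those calls.

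By symbol, 35 of the 44 collagen genes matched the RefSeq table of start regions (GRCm38.p6). The 250 bases before the RefSeq start of Col6a3 and of Col18a1 are shown because both genes rose. Col12a1 and Col1a1 rose as well but had no entry in that table. The GENCODE M21 start of Col18a1, at 77166548, lies further upstream, so a few bases shown for Col18a1 fall inside its M21 span. Capitals mark matches on either strand to GGGCGG (the GC box), CCAAT or TATAAA, which do not overlap each other here. The regions are chr1:90843972-90844221 and chr10:77166531-77166780, both read along the minus strand.
Col6a3: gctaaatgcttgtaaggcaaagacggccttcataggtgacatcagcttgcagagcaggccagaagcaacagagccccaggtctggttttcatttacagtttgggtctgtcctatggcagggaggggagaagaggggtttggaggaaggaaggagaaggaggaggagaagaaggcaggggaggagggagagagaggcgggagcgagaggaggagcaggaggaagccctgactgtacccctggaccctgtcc
Col18a1: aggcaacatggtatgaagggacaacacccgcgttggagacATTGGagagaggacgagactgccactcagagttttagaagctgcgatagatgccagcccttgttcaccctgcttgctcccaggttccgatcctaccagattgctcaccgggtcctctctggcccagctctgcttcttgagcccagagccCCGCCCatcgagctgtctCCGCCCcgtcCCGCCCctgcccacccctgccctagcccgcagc
Col18a1 held 3 matches to the GC box and 1 to CCAAT, and Col6a3 held none of the 3 motifs. Among all 32851 start regions of the table, 32.7% held GGGCGG, 33.8% CCAAT and 12.4% TATAAA within these 250 bases.

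The remaining 24 collagen genes averaged below 1 TPM and were outside the fit. With no minimum on TPM, 22 of them were tested and none was called, nor was any of the other 20. Among these 22, 4 were higher in both propionate libraries than in every chloride library and 1, Col5a2, was lower, where 10.6% and 7.16% of all genes between 0 and 1 TPM were. Col8a1, a short-chain collagen of vessel and eye membranes, had the highest of these levels after Col4a1, with 0.863 and 1.07 TPM in propionate libraries, against 0.842, 0.345 and 0.581 TPM in chloride libraries. Its partner Col8a2 had 0.189 and 0.171 TPM in propionate libraries, against 0.0317, 0.015 and 0 TPM in chloride libraries. Both were higher in propionate without overlap, as were Col4a2 and the transmembrane chain Col23a1. Col13a1 and Col19a1 were listed at 0 throughout.

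Lists of 98 genes that process, cross-link or bind collagen were also chosen with earlier results of these data known. Of the 98 genes, 67 were tested. Of these 5 rose and 0 fell in limma, 40 were above 0, and the median log2 change was 0.076, where 1.31% of all tested genes were called higher, 0.504% lower and 44.5% were above 0, with a median of -0.026. At an unadjusted p under 0.05, 15 were higher and 3 lower, against 7.93% and 8.91% of all tested genes. Plod2, which hydroxylates lysines so that chains can be cross-linked, was the 1 of 18 tested modifying and folding genes that rose, with 211 and 240 TPM in propionate libraries, against 161, 153 and 148 TPM in chloride libraries (log2 change 0.545 ± 0.091, limma adjusted p = 0.029). The other lists of this kind held few calls as well. Loxl2, a cross-linking oxidase, had 7.2 and 6.26 TPM in propionate libraries, against 3.31, 3.32 and 2.68 TPM in chloride libraries (0.915 ± 0.141, limma adjusted p = 0.0216), and was the 1 of 7 tested propeptide and cross-linking genes that rose. Lox itself was listed at 0 in all libraries.

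Among 8 tested collagen receptors, Itga1, the integrin subunit that binds collagen IV and I, rose. It had 53.8 and 60.1 TPM in propionate libraries, against 31.4, 28.4 and 29.6 TPM in chloride libraries (log2 change 0.913 ± 0.099, limma adjusted p = 0.00582). Thbs2, a matrix protein that shapes fibres, had 21.4 and 24.8 TPM in propionate libraries, against 13, 13 and 11.6 TPM in chloride libraries (0.832 ± 0.112, limma adjusted p = 0.0137), the 1 of 4 tested fibril partners that rose. Timp1, an inhibitor of collagenases, had 38.7 and 41.7 TPM in propionate libraries, against 26.1, 28.7 and 25 TPM in chloride libraries (0.579 ± 0.101, limma adjusted p = 0.0328), the 1 of 6 tested breakdown and uptake genes that rose. In all 5 genes the groups did not overlap, and all 5 lost their call without propionate replicate 3 (adjusted p = 0.0821 to 0.155). They were named because they were called, and 14.8% of all tested genes were likewise higher without overlap. All 5 also lost their call with reference transcripts only (limma adjusted p = 0.0851 to 0.554) and with no minimum (0.129 to 0.169). Reference transcripts of Timp1 had 24.1 and 33.1 TPM in propionate libraries, against 25.1, 21.9 and 23.3 TPM in chloride libraries, with overlap (log2 change 0.263). Without chloride replicate 1 the adjusted p of Plod2 was 0.0783, of Loxl2 0.0579 and of Timp1 0.101. With chloride replicate 2 left out it was 0.0914 for Plod2 and 0.0594 for Timp1, and with chloride replicate 3 left out 0.0792 and 0.0838. Loxl2 and Timp1 had 0.114 and 0.0794 without propionate replicate 2.

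None of the 6 tested procollagen export genes passed in limma. All 6 were below 0, where 44.5% of all tested genes were above 0, and 1 was lower at an unadjusted p under 0.05, as were 8.91% of all tested genes. Sec23a, a coat protein of vesicles that carry procollagen, had 23.3 and 24.4 TPM in propionate libraries, against 30.4, 27.5 and 28.5 TPM in chloride libraries (log2 change -0.259 ± 0.096, limma adjusted p = 0.226), and 0.087 with reference transcripts only. Sec31a, of the same coat, had 29.7 and 33.5 TPM in propionate libraries, against 37.8, 36.1 and 34.8 TPM in chloride libraries (-0.194 ± 0.099, limma adjusted p = 0.371). Basement membrane partners gave no limma call among 9 tested genes. Before adjustment, 1 of the 9 had a limma p under 0.05, with a log2 change above 0. Of all tested genes, 7.93% did so above 0 and 8.91% below 0. Lama5, a laminin chain, had 13.5 and 15.3 TPM in propionate libraries, against 11, 11.5 and 10.1 TPM in chloride libraries (0.379 ± 0.112, limma adjusted p = 0.14), and Sparc, a collagen-binding matrix protein, 953 and 1130 TPM in propionate libraries, against 964, 877 and 834 TPM in chloride libraries (0.221 ± 0.103, limma adjusted p = 0.329).

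Transcription factors known to drive collagen genes gave no limma call among 9 tested of 13 listed. Before adjustment, 2 of the 9 had a limma p under 0.05, each with a log2 change above 0. Over all tested genes, 7.93% met that limit above 0 and 8.91% below 0. Klf4 had 12.4 and 16.7 TPM in propionate libraries, against 11.1, 9.84 and 9.63 TPM in chloride libraries (log2 change 0.463 ± 0.14, limma adjusted p = 0.146). Wwtr1, which encodes the co-activator TAZ, had 20 and 19.5 TPM in propionate libraries, against 17.2, 17 and 14.9 TPM in chloride libraries (0.259 ± 0.106, limma adjusted p = 0.265). Sox9, which turns on Col2a1, Col9a1 and Col11a2 in cartilage, was listed at 0 in all 5 libraries.

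Some markers of collagen-making mesenchymal cells were higher in the same libraries as the collagen genes that rose. The 6 fibroblast markers summed to 14.5 and 13.8 TPM in propionate libraries, against 7.25, 7.17 and 7.4 TPM in chloride libraries. Postn made up most of this, with 11.8 and 11.7 TPM in propionate libraries, against 6.13, 6.49 and 6.74 TPM in chloride libraries (log2 change 0.772 ± 0.107, limma adjusted p = 0.0143). The other tested member, Pdgfrb, had 2.29 and 1.91 TPM in propionate libraries, against 1.01, 0.652 and 0.626 TPM in chloride libraries (limma adjusted p = 0.0864). Lum was listed at 0 in all libraries, and Dcn had 0.198 TPM in propionate replicate 2 and was listed at 0 in the other libraries.

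The 5 pericyte markers summed to 5.65 and 6.67 TPM in propionate libraries, against 2.39, 2.86 and 2.77 TPM in chloride libraries. Nearly all of it was Des (0.941 ± 0.145, limma adjusted p = 0.0216), while Rgs5 reached at most 0.0581 TPM. The 4 smooth muscle markers summed to 30 and 33.6 TPM in propionate libraries, against 25.4, 26 and 26 TPM in chloride libraries. Most of this was Acta2, with 26.8 and 30.9 TPM in propionate libraries, against 23.7, 23.2 and 24 TPM in chloride libraries. Acta2 did not pass (limma adjusted p = 0.228). Cnn1 was higher without overlap and did not pass, Tagln overlapped between the groups, and Myh11 reached at most 0.145 TPM. The 5 myeloid markers summed to 10.4 and 12.2 TPM in propionate libraries, against 7.95, 7.38 and 6.54 TPM in chloride libraries. Nearly all of the myeloid sum was Cd68, with 10.1 and 12.1 TPM in propionate libraries, against 7.59, 7.03 and 6.22 TPM in chloride libraries, while Itgam was listed at 0 throughout, Ptprc reached at most 0.0457 TPM, and Csf1r was lower in propionate, at 0.276 and 0.0634 TPM, against 0.303, 0.286 and 0.306 TPM in chloride libraries. Fabp7 rose among 7 tested glial and glioma markers, with 21.5 and 26 TPM in propionate libraries, against 13, 12.9 and 14.4 TPM in chloride libraries (0.77 ± 0.116, limma adjusted p = 0.0195). S100b, of the same list, lay below 0 without overlap and did not pass, with 147 and 167 TPM in propionate libraries, against 208, 194 and 203 TPM in chloride libraries (-0.36 ± 0.091, limma adjusted p = 0.0934). The part of these cell type markers in the change of the collagen genes was not tested.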

How the data were processed

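Per the labels' protocols, libraries were made from GL261 total RNA with a TruSeq Stranded Total RNA kit. Reads were handled with bcl2fastq, fastp, HISAT2 and StringTie on mm10, per the submitters' processing notes. The command in the file headers ran StringTie 2.1.1 on a merged annotation and sets no strand. The authors deposited TPM, FPKM and coverage per transcript in the other fields of each line, and no read counts.

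Each file listed 157895 transcripts. GENCODE M21 (GRCm38) gave the gene of each Ensembl transcript, and 12224 of 15415 assembled transcripts were added to the gene of their locus and strand that they overlapped most. The 44 collagen genes held 227 reference and 51 assembled transcripts. The log2 of gene TPM + 1 went into limma 3.58.1 (R 4.3.3; lmFit, then eBayes with trend), two-sided and without covariates. A fold on this scale understates the change of low genes. Exon coverage was summed over a gene's transcripts. Single values were compared with an exact permutation test over the 10 ways to pick 2 of 5 libraries.

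Every collagen gene with a mean of at least 1 TPM was named. From each partner list up to 4 called genes were named, or else the 2 with the smallest p. Partner and marker lists, like the members, were chosen with earlier results of these data known. Alternatives covered the pseudocount (0.1 TPM), the minimum (5 TPM or none), FPKM, rescaling by median-of-ratios or over protein-coding genes, reference transcripts only, voom, each library left out and a replicate block. A sodium propionate replicate 1 was not analysed here.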

Additional observations from a re-analysis of the deposited data

How the results depend on the processing

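Collagen genes called higher numbered 4 at first, 0 with no minimum on TPM, 0 with reference transcripts only and 0 to 4 with 1 library left out. Collagen genes called lower numbered 0 at first, 1 with a minimum of 5 TPM and 1 with FPKM (Col11a2 in both), 7 over protein-coding genes, 6 with voom and 2 with median-of-ratios scaling (Col11a2 and Col9a2). Over all genes, calls higher and lower numbered 182 and 70, against 2 and 1 with no minimum, 588 and 407 over protein-coding genes, 336 and 154 with median-of-ratios scaling, 5 and 6 with reference transcripts only, and 708 and 359 with voom. Calls lower numbered 106 with FPKM and 107 with the replicate block. With 1 library left out they ran from 8 to 126 higher and 7 to 46 lower, lowest without propionate replicate 3, where the lone propionate library is assumed to vary like the chloride libraries. Calls higher made up 72.2% of all calls, 59.1% over protein-coding genes, 45.5% with reference transcripts only, 53.3% without propionate replicate 3, 83.8% without propionate replicate 2 and 84.3% without chloride replicate 1. The median log2 change of the tested collagen genes, 0.125, was 0.026 with no minimum and -0.036 to 0.343 with 1 library left out.

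Log2 changes that turned round were those of Col6a1 (-0.082 with voom, -0.319 to 0.364 with 1 library left out), Col16a1 (-0.783 with reference transcripts only, -0.107 to 0.217 with 1 library left out), Col11a1 (0.26 with reference transcripts only), Col9a3 (-0.075 to 0.126 with 1 library left out) and Sec23a (0.087 with reference transcripts only). None of the turned values passed the threshold. Col11a1 was called lower over protein-coding genes and with voom. The causes of these differences were not tested. Of 431 values of the 31 named genes under an alternative, 357 kept direction and side of the threshold, 38 lost a call and 27 gained one. Only the 4 collagen and 5 partner genes called at first could lose a call. The 357 are therefore mostly values of uncalled genes that stayed uncalled, and do not measure how stable the calls were.

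Only replicate numbers 2 and 3 occur in both groups, and no label ties a number to a shared culture or day. Deviations of same-numbered libraries correlated at -0.222 and -0.196, but with 2 propionate libraries these values are not independent and do not settle whether the numbers pair the samples, which were treated as unpaired. With replicate number as a block, 4 collagen genes were called higher and 0 lower, where 1.93% and 0.771% of all 13876 tested genes were. The log2 changes were 1.458 for Col6a3, 0.877 for Col12a1, 0.82 for Col18a1 and 1.139 for Col1a1. Timp1 lost its call (0.566, limma adjusted p = 0.0752). Of the 24 collagen genes below 1 TPM, 22 were tested with no minimum and none was called.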
